A study of Homo sapiens with 6 samples.

Results

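DDIT4, the sestrins SESN1, SESN2 and SESN3, and the α-arrestins TXNIP, ARRDC3 and ARRDC4 were taken by gene symbol from a table of reads per gene in Caki-1 cells. All 7 had a row among the 60708 genes listed, and all 7 passed the filter of at least 10 reads in any sample that left 17401 genes for testing. Caki-1 is a human clear cell renal carcinoma line that carries an intact VHL gene. RNA came from 3 samples of VC cells, which are wild type for VHL and received the lenti-CRISPR vector alone, and from 3 samples of VHL-KO cells, which received the same vector with a guide RNA against VHL. Per the study's methods, cells were selected with puromycin, knockout cells were grown from single clones checked by immunoblot, and RNA was taken about 2 days after plating. How many clones and which guide the 3 VHL-KO samples represent is not given in the sources used here, so differences of a clone cannot be told apart from those of the genotype. Nothing in the labels says that the samples of a group were separate cultures, so p-values measure only the spread between these samples.

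VHL is the substrate receptor of a ubiquitin ligase that marks the α subunits of the hypoxia-inducible factors (HIF) for degradation. DDIT4, also called REDD1, restrains the growth-promoting kinase complex mTORC1 through the TSC proteins, and its transcription is known to respond to HIF, ATF4 and glucocorticoids. Sestrins restrain the same complex from another side by binding GATOR2, and SESN2 also senses leucine. TXNIP binds reduced thioredoxin and, like its relatives ARRDC3 and ARRDC4, acts as an adaptor that brings membrane proteins such as glucose transporters and receptors to NEDD4-family ubiquitin ligases and to endocytosis.

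Each sample held 22628246 to 34881739 reads on genes. Counts scaled by library size and edgeR's TMM factors (CPM) put 3 reads, the limit that a count of 0 allows, at 0.079 to 0.141 CPM, which covers counting error only. VHL itself averaged 40.2 CPM in VC (SD 2.38, n = 3) and 31.9 CPM in VHL-KO samples (SD 2.49, n = 3). Its log2 fold change was -0.33 with an adjusted p of 0.0109 (quasi-likelihood test of edgeR, Benjamini-Hochberg over all tested genes), and it was called lower in 10 of 15 alternative fits. With offsets for GC content and length it was -0.16 and not called (edgeR adjusted p = 0.111). Counts per gene do not show an edit, and 23.46% of its exonic bases overlap a gene on the other strand. Among all tested genes 59.7% were called at an adjusted p of 0.05, which is the background for every count here, and 4958 were called higher and 5436 lower. Library size alone gave 3764 higher and 6737 lower and moved the median log2 fold change of all tested genes from -0.01 to -0.20, whereas upper quartile factors moved it to 0.10. Fold changes followed base composition, with a median of -0.36 in the 6644 tested genes under 45% GC and 0.40 in the 4744 genes of 55% or more. Whether this trend contributed to a change of any gene below was not tested, and values with offsets that remove it are given where they change the call of one of the 7 genes. Of 8 kidney epithelial markers, PAX2 had 0 counts and 4 were called higher and 1 lower. CDH16, a kidney cadherin, rose from 6.38, 7.88 and 6.01 to 70.7, 74.2 and 71.8 CPM, PAX8 rose from 428 to 614 CPM and KRT8 from 670 to 952 on average, and EPCAM, an epithelial adhesion molecule, fell from 56, 31 and 50 to 17, 14 and 4 reads. The summed level was 7600 to 8770 CPM in VC and 8120 to 8680 in VHL-KO cells, most of it VIM, a mesenchymal filament gene that clear cell carcinomas also express, at 6430 and 6140 CPM on average. The calls of this list became 3 higher and 3 lower under library size alone. The 8 markers of blood, endothelial, fibroblast and liver cells summed to 29.4 to 36.8 CPM in VC and 23.7 to 28.4 in VHL-KO cells, of which COL1A1 gave 33.7 and 25.2 on average, and CD3E and COL3A1 had 0 counts. PECAM1, an endothelial marker on that list, had 1, 5 and 0 reads in VC and 14, 7 and 9 in the knockout samples (edgeR adjusted p = 0.0117), and the call was lost without VC replicate 3. The part of these markers in the results was not tested.

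In VHL-KO cells 5 of the 7 genes were called and all 5 were higher, against 59.7% of all tested genes called in either direction and 28.5% called higher. TXNIP rose 4.78-fold, DDIT4 4.21-fold, ARRDC3 2.74-fold, ARRDC4 2.00-fold and SESN3 1.89-fold, while SESN1 and SESN2 were not called. DDIT4, TXNIP and ARRDC3 were called with a rise of at least 2-fold, which held for 13.9% of all tested genes, and ARRDC4 was just under that threshold before rounding. The CPM of the VC and VHL-KO samples did not overlap for the 5 called genes, which was also true, in the same direction, of 31.2% of all tested genes. With offsets for GC content and length, SESN1 was also called higher and SESN2 was called lower, so that the count became 6 higher and 1 lower. In bulk RNA, a larger share of cells with a transcript and more transcript per cell cannot be told apart.

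**Figure D1:**
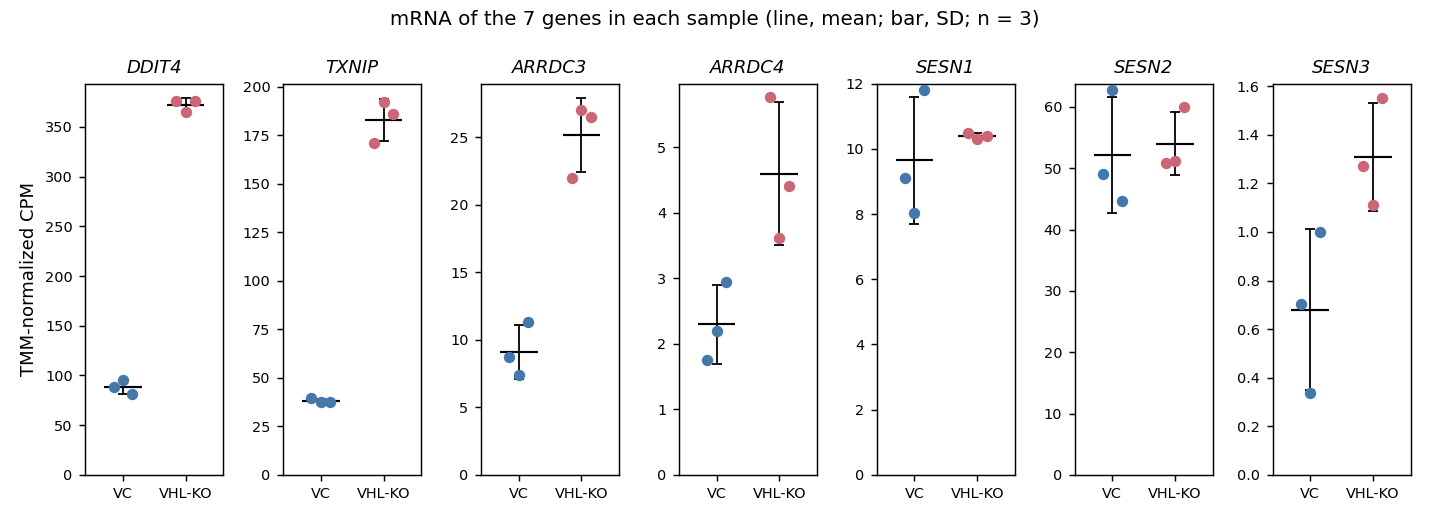
TMM-normalized CPM of each gene in every sample (y axis from 0, own scale for each gene), with VC in blue and VHL-KO in red, the mean as a line and the SD as a bar (n = 3). DDIT4 and TXNIP stand far apart between the groups (88.6 against 373 and 38.2 against 183 CPM on average), ARRDC3, ARRDC4 and SESN3 are separated by smaller gaps, and the SESN1 and SESN2 samples overlap.

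The promoters are shown first because several of the factors named above recognise short DNA motifs. The 250 bases before the RefSeq start (GRCh38.p14) of DDIT4 (chr10:72273674-72273923, plus strand) and of the 3 α-arrestins, TXNIP (chr1:145996580-145996829, minus), ARRDC3 (chr5:91383318-91383567, minus) and ARRDC4 (chr15:97960453-97960702, plus), are set beside those of SESN2 (chr1:28259268-28259517, plus), which was not called. They read 5′ to 3′ along the gene's strand. Capitals mark ACGTG (the core of HIF response elements) and CCAAT (the box bound by NF-Y), each on either strand, and in TXNIP a pair of E-box-like hexamers 5 bases apart, the layout of a carbohydrate response element.
DDIT4: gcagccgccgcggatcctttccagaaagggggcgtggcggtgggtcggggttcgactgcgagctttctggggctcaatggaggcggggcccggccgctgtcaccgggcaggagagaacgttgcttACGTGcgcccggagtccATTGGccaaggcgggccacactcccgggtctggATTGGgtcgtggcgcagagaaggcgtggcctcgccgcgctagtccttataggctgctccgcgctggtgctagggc
TXNIP: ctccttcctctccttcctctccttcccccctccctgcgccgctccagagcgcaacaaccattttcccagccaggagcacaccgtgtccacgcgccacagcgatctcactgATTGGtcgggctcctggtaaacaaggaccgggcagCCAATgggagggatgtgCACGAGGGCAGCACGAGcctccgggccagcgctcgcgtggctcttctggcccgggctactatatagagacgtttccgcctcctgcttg
ARRDC3: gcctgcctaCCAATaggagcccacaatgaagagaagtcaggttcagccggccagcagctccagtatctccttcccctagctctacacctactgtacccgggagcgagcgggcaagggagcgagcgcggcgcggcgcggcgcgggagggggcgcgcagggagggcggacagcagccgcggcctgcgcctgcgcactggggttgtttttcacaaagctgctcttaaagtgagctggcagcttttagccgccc
ARRDC4: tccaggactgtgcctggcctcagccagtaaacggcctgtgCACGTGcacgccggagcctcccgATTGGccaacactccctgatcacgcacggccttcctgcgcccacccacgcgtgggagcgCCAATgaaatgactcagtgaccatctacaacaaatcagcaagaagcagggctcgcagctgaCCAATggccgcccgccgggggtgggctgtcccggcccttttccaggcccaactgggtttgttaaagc
SESN2: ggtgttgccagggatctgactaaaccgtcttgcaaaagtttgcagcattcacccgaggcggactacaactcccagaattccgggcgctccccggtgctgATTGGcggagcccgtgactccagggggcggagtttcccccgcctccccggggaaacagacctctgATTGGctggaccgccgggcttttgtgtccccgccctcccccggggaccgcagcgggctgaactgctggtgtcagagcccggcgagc

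ACGTG was present in 2 of the 7 promoters, against 18.5% of the 35116 RefSeq windows of this length, searched on both strands. Only 1 window a gene was searched for the 7, the one nearest the outer end of the annotated gene. RefSeq gave 3 windows for SESN1 and 2 each for TXNIP and ARRDC3, so an absence below concerns the searched window alone. In DDIT4 it began 125 bases before the start. In ARRDC4 it began 210 bases before the start, where the letters form the palindrome CACGTG, so that the HIF core and the E-box overlap there. CACGTG was found in 6.34% of all windows. With GCGTG also allowed as the HIF core, matches stood in 3 of the 7 promoters, 3 in DDIT4, 2 in TXNIP and 6 in ARRDC4, against 43.2% of all windows. Each strand was counted separately. In ARRDC4 the matches 210 and 209 bases before the start overlap, as do those at 142 and 139, so it holds fewer distinct sites. TXNIP had no ACGTG but GCGTG 163 and 54 bases before the start, and its pair of hexamers, each CACGTG or, on either strand, CACGAG, with 5 bases between them, began 88 bases before the start. Such a pair was found in 0.00854% of all windows, a set that holds the windows of TXNIP too. The hexamers were written from general knowledge of this kind of element, TXNIP's own included, so this share is no test of rarity. CCAAT was found in 5 of the 7 promoters and 32.0% of all windows, with 3 copies in ARRDC4, 2 each in DDIT4, TXNIP and SESN2, and 1 in ARRDC3. SESN1 had neither ACGTG nor CCAAT and held 7 copies of the GC box GGGCGG, a motif of 42.6% of all windows and of 4 of the 7 promoters. SESN3, which was called higher, had no match to any of the motifs searched. The sequences of SESN1 and SESN3 are not shown above. TATAAA was found in 10.7% of all windows and TGACG, the half-site of cyclic AMP response elements, in 21.2%, and neither was in any of the 7. These are matches of letters, and binding was not measured.

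DDIT4 (ENSG00000168209) lies on chromosome 10 of GRCh38 from 72273919 to 72276036 on the plus strand. It is the stress-induced mTORC1 inhibitor of the set. DDIT4 had 3022, 2850 and 3085 reads in the VC samples and 10039, 7884 and 8024 in the VHL-KO samples, or 88.5, 95.9 and 81.3 against 376, 365 and 376 CPM. The lowest VHL-KO sample was far above the highest VC sample, and the samples within each group were close to each other. Its log2 fold change was 2.07 (standard error 0.09, 95% interval 1.88 to 2.26, edgeR adjusted p = 2.9e-15), at percentile 95.1 of the log2 fold changes of all tested genes. It was called in 15 of 15 alternative fits, with log2 fold changes from 1.61 to 2.18, the lowest with the offsets for GC content and length. DDIT4 has a GC content of 59.7% and no exonic overlap with another annotated gene.

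TXNIP (ENSG00000265972), on the minus strand of chromosome 1 from 145992435 to 145996579, encodes the α-arrestin that also binds thioredoxin. The VC samples had 1348, 1116 and 1430 reads (39.5, 37.6 and 37.7 CPM) and the VHL-KO samples 4560, 4147 and 3962 reads (171, 192 and 186 CPM). All 3 VHL-KO samples were well above all 3 VC samples, which differed little among themselves. The log2 fold change of 2.26 (standard error 0.10, 95% interval 2.06 to 2.45, edgeR adjusted p = 1.1e-15) stood at percentile 96.0 and was called in 15 of 15 alternative fits, with values from 2.07 to 2.43. Its GC content of 43.8% is lower than that of DDIT4, and with the offsets its log2 fold change was 2.43, against 1.61 for DDIT4.

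ARRDC3 (ENSG00000113369), on the minus strand of chromosome 5 from 91368631 to 91383317, encodes an adaptor for membrane proteins, integrin β4 among them. It had 297, 219 and 429 reads (8.70, 7.37 and 11.3 CPM) in VC and 588, 583 and 564 reads (22.0, 27.0 and 26.5 CPM) in VHL-KO samples. VC replicate 3 was the highest of its group and still lay under every VHL-KO sample. This gave a log2 fold change of 1.46 (standard error 0.15, 95% interval 1.14 to 1.77, edgeR adjusted p = 1.1e-08), and it ran from 1.26 to 1.94 over 15 alternative fits, all of which called it. The antisense gene ARRDC3-AS1 covers 2.91% of its exonic bases and went from 12, 13 and 22 reads to 6, 3 and 0 reads (log2 fold change -1.82, standard error 0.75, edgeR adjusted p = 0.0401), a call kept in 4 of 14 alternatives. Whether counting used the strand is not given in the sources used here, so reads of the pair cannot be told apart where they overlap.

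ARRDC4 (ENSG00000140450), on the plus strand of chromosome 15 from 97960703 to 97973833, is the arrestin most like TXNIP in its known induction by glucose. Its level was low, at 60, 65 and 112 reads (1.76, 2.19 and 2.95 CPM) in VC and 154, 78 and 94 reads (5.77, 3.61 and 4.41 CPM) in VHL-KO samples. The groups did not overlap in CPM, but VC replicate 3 had more reads than VHL-KO replicates 2 and 3 before scaling. The log2 fold change was 1.00 (standard error 0.23, 95% interval 0.52 to 1.48, edgeR adjusted p = 0.000681). All 15 alternative fits called it, with log2 fold changes of 0.80 to 1.29 and a largest adjusted p of 0.0111.

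Of the sestrins, 1 was called and 2 were not. SESN2 (ENSG00000130766), on the plus strand of chromosome 1 from 28259518 to 28282491, was at 49.0, 62.8 and 44.6 CPM in VC (1674, 1866 and 1692 reads) and at 50.9, 51.2 and 60.0 CPM in VHL-KO samples (1359, 1105 and 1279 reads). The ranges overlapped, with VC samples as both the highest and the lowest. SESN2 had a log2 fold change of 0.05 (standard error 0.12, edgeR adjusted p = 0.719), and its 95% interval was -0.19 to 0.30. Its sign was not stable, at -0.14 with library size alone and -0.03 without VC replicate 3 or without VHL-KO replicate 3. With the offsets for GC content and length, SESN2, which has a GC content of 59.6%, was called lower at -0.22 (edgeR adjusted p = 0.0267).

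SESN1 (ENSG00000080546), a stress-regulated sestrin on the minus strand of chromosome 6 from 108984309 to 109094846, had 311, 239 and 449 reads in the VC group and 281, 223 and 222 among the VHL-KO samples. In CPM the VC samples spread from 8.04 to 11.8, whereas the VHL-KO samples lay between 10.3 and 10.5, inside the VC range. The log2 fold change was 0.11 (standard error 0.16, 95% interval -0.22 to 0.44, edgeR adjusted p = 0.584), and library size alone turned it to -0.09. Here too the offsets made a call, in the other direction from SESN2: SESN1 has a GC content of 40.6%, and its log2 fold change with offsets was 0.54 (edgeR adjusted p = 0.000466). Neither SESN1 nor SESN2 had a direction that held in every fit.

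SESN3 (ENSG00000149212), known as a FOXO-regulated sestrin, lies on the minus strand of chromosome 11 from 95165513 to 95232541. It was close to the limit of what the depth could resolve, with 24, 10 and 38 reads (0.703, 0.337 and 1.00 CPM) in VC and 34, 24 and 33 reads (1.27, 1.11 and 1.55 CPM) in VHL-KO samples. The CPM of the groups did not overlap, with a narrow gap between VC replicate 3 and VHL-KO replicate 2. The log2 fold change of 0.92 (standard error 0.39, 95% interval 0.12 to 1.72) was called at an edgeR adjusted p of 0.0445. The call was kept in 9 of 15 alternatives and lost with DESeq2 (adjusted p = 0.0667), with library size alone (log2 fold change 0.72) and when VC replicate 1 or 2 was left out (0.94 and 0.63) or replicate 1 or 3 of the knockout (0.95 and 0.79).

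**Figure D2:**
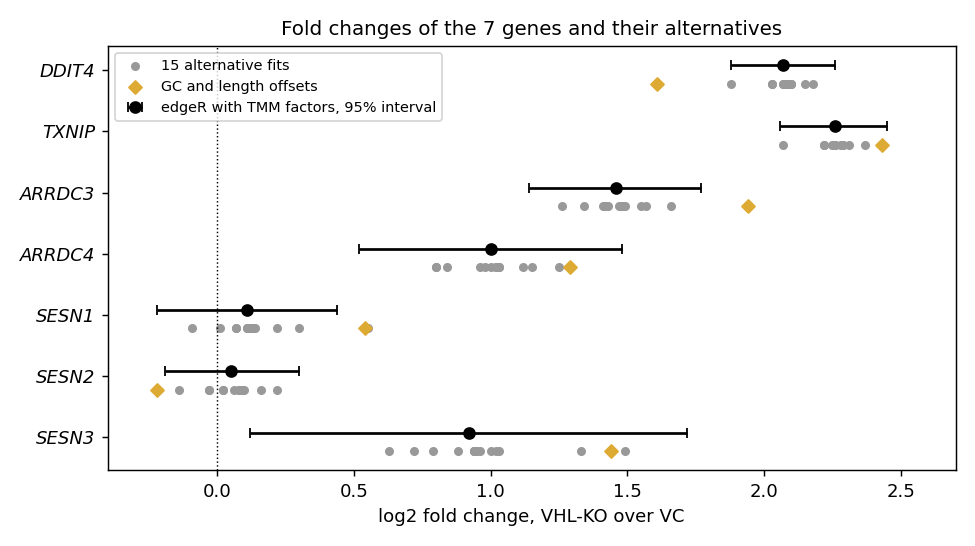
Log2 fold change of each gene (x axis, VHL-KO over VC) from edgeR with TMM factors (black, with its 95% interval), from 15 alternative fits (grey) and with offsets for GC content and length (diamond). TXNIP, DDIT4, ARRDC3 and ARRDC4 stay right of 0 in every fit shown, SESN3 does too with a wide interval of 0.12 to 1.72, and SESN1 and SESN2 fall on both sides of 0.

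Per exon length (TPM, computed here from reads per kilobase scaled to the same sum in each sample, and used only to compare genes), DDIT4 was the most abundant of the 7 in both groups. It stood at 143 ± 9.90 TPM in VC (SD, n = 3), rank 950 of all genes, and at 448 ± 17.7 TPM in VHL-KO cells, rank 235. SESN2 was second in VC cells at 51.4 ± 8.79 TPM, ahead of TXNIP at 36.3 ± 0.951 TPM, and their samples did not overlap. In VHL-KO cells this order was exchanged, with TXNIP at 129 ± 12.6 TPM (rank 844, from 3433) and SESN2 at 39.8 ± 5.06 TPM. With the longest transcript as length, the VC means were closer, at 37.8 TPM for SESN2 and 33.1 for TXNIP. In VC replicate 3 TXNIP was then above SESN2 (1430 reads over 2905 bases against 1692 over 3462), so the VC samples overlapped. ARRDC3 followed at 6.27 ± 1.47 TPM in VC and 12.9 ± 1.88 TPM in VHL-KO cells. SESN1 was at 4.55 ± 0.993 TPM in VC, where its samples overlapped those of ARRDC3, and at 3.65 ± 0.126 TPM in VHL-KO cells, where they did not. ARRDC4 came next, at 1.94 ± 0.540 and 2.86 ± 0.569 TPM, and SESN3 was the lowest at 0.221 ± 0.111 and 0.316 ± 0.0594 TPM. The ARRDC4 and the SESN3 samples overlapped between VC and VHL-KO on this scale, which carries no TMM factor.

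**Figure D3:**
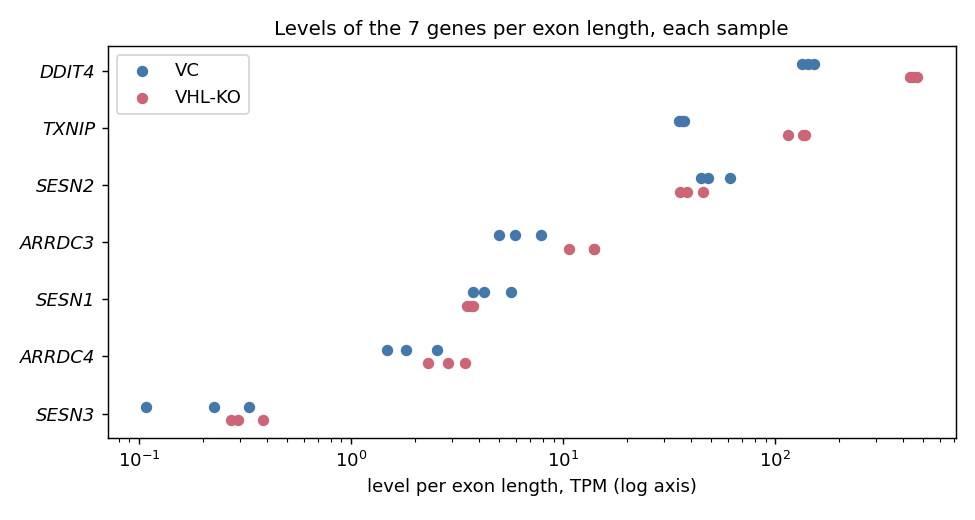
Level per exon length in TPM (log axis) of each gene in the 3 VC (blue) and 3 VHL-KO samples (red), ordered by the VHL-KO mean. DDIT4 is highest in both groups, and TXNIP passes SESN2 between VC (36.3 against 51.4 TPM) and VHL-KO cells (129 against 39.8 TPM). With the longest transcript as length, not drawn, the VC means are closer (33.1 against 37.8 TPM).

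Within the sestrins, SESN2 made up most of the transcripts in every sample, with 88.2% to 94.1% of the summed TPM in VC and 90.4% to 91.7% in VHL-KO cells. SESN1 accounted for 5.73% to 11.1% and 7.57% to 8.89%, and SESN3 for at most 0.774% in any sample. Among TXNIP, ARRDC3 and ARRDC4, the share of TXNIP was 83.4%, 83.8% and 77.7% in the VC samples against 89.0%, 89.4% and 89.0% with the knockout, without overlap. The shares of ARRDC3 (11.9% to 16.9% in VC, 8.30% to 9.16% in VHL-KO) and ARRDC4 (3.29% to 5.40% and 1.49% to 2.67%) were correspondingly smaller in VHL-KO cells, although both genes rose in CPM.

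Ratios of reads between relatives in the same sample do not depend on scaling between samples. They are not corrected for the trend with GC content, and no ratio was computed with the offsets. The log2 ratio of TXNIP to ARRDC3 was 2.18, 2.35 and 1.74 in the VC samples against 2.95, 2.83 and 2.81 with the knockout, a difference of 0.78. That of TXNIP to ARRDC4 was 4.48, 4.09 and 3.67 against 4.88, 5.72 and 5.39, a difference of 1.25. In both pairs the groups did not overlap, with TXNIP gaining on its relatives. With 3 samples a group the exact two-sided permutation test over 20 arrangements cannot go below p = 0.1, the value both pairs gave, or 0.2 after Benjamini-Hochberg adjustment over the 6 pairs. ARRDC3 to ARRDC4 differed by 0.48 with overlapping samples (exact permutation p = 0.3, adjusted 0.36). Among the sestrins, SESN1 to SESN3 fell by 0.93 without overlap between the groups (exact permutation p = 0.1, adjusted 0.2). SESN2 to SESN3 fell by 0.99 with overlap (exact permutation p = 0.2, adjusted 0.3), and the value was -0.43 without VC replicate 2. SESN1 to SESN2 differed by 0.07, with an exact permutation p of 0.8. With the offsets the log2 fold changes of SESN1 and SESN2 were 0.54 and -0.22, and those of TXNIP and ARRDC3 were 2.43 and 1.94.

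**Figure D4:**
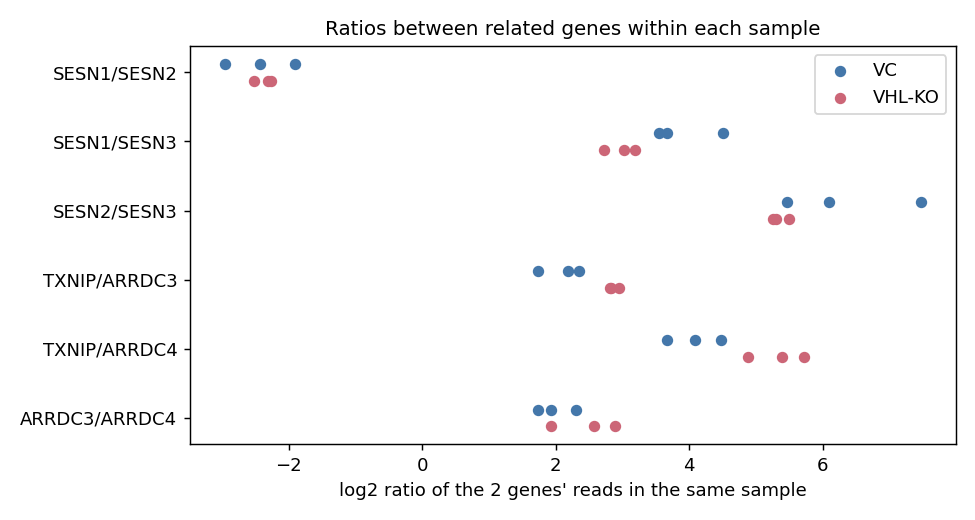
Log2 ratio of reads (x axis) between pairs of relatives within each VC (blue) and VHL-KO (red) sample. The ratios of TXNIP to ARRDC3 and to ARRDC4 are higher in all 3 VHL-KO samples than in any VC sample, SESN1 to SESN3 is lower, and the other 3 pairs overlap.

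Of 6 further relatives, 3 rose, 2 were not called and ARRDC5 had 0 counts in all 6 samples. DDIT4L, or REDD2, the paralog of DDIT4 with the same known action on mTORC1, went from 19, 4 and 10 reads in VC to 67, 68 and 85 with the knockout, without overlap. Its log2 fold change was 3.29 (standard error 0.37, edgeR adjusted p = 3.6e-08). ARRDC1, an α-arrestin of extracellular vesicle release, rose by 0.99 on the log2 scale (20.3 ± 3.14 to 40.5 ± 1.93 CPM, edgeR adjusted p = 1.6e-07) and ARRDC2 by 0.71 (18.5 ± 2.22 to 30.3 ± 1.41 CPM, adjusted p = 2.0e-05). Some of the exonic bases of both overlap a gene on the other strand (0.92% and 9.53%), and 4.83% of those of ARRDC1 overlap a gene on its own strand, so these reads are uncertain. ARRDC1 and ARRDC2 have GC contents of 62.8% and 60.2%. Over 15 alternative fits, all of which called both, ARRDC1 ran from 0.62 to 1.12 and ARRDC2 from 0.44 to 0.82. The β-arrestins, which act at activated receptors, were not called, with log2 fold changes of -0.01 for ARRB1 (95% interval from -0.26) and 0.09 for ARRB2 (from -0.15). The sign of both changed with the scaling, and with the offsets ARRB2 was called lower at -0.31, which made the list 3 higher and 1 lower.

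The genes through which DDIT4 and the sestrins reach mTORC1 changed in both directions. Of 9 genes of the TSC complex, RHEB and mTORC1, 4 were called higher and 2 lower, with a median log2 fold change of 0.18 against -0.01 for all tested genes. DEPTOR, an inhibitory partner of mTOR, rose by 1.11 on the log2 scale (4.02 ± 0.128 to 8.65 ± 0.880 CPM), and the TSC members TSC2 and TBC1D7 rose by 0.57 and 0.52. MTOR, the kinase itself, fell by 0.68 (58.7 ± 5.75 to 36.6 ± 2.16 CPM). Of 16 genes of GATOR, KICSTOR and the amino acid sensors, 15 were tested, 5 were called higher and 4 lower, and the median was 0.11. Library size alone made this 3 higher and 6 lower, and the offsets 5 higher and 6 lower. SLC38A9, the lysosomal arginine sensor, fell by 1.19 and the GATOR2 subunit SEH1L, part of the complex that sestrins bind, by 1.00. KICS2, listed under an older symbol, fell by 0.98, while CASTOR2, a relative of the cytosolic arginine sensor, rose by 1.03, with near-identical copies in the genome that make its reads uncertain.

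AMPK, the energy-sensing kinase that sestrins are known to activate, had all 6 tested subunits of 7 called, 3 higher and 3 lower (median 0.32). Most alternative fits called 5 or fewer of them. The fall of PRKAG2 by 0.24 was called in 4 of 15 alternatives. With the offsets its sign changed, to a log2 fold change of 0.11. The catalytic subunits moved apart. PRKAA2 went from 19, 30 and 39 to 193, 173 and 142 reads without overlap (log2 fold change 3.07, standard error 0.24, edgeR adjusted p = 6.7e-11), and PRKAA1 fell by 0.92 from 16.6 ± 3.21 to 8.80 ± 1.12 CPM. Of the regulatory subunits, PRKAB2 fell by 1.16, and PRKAG1 rose by 1.08 on few reads (15 to 49 a sample), a call lost with library size alone and without VHL-KO replicate 1. The PRKAG1 samples overlapped between the groups, with VHL-KO replicate 2 at 0.695 CPM and VC replicate 1 at 0.703 CPM.

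The thioredoxin and peroxiredoxin system, the redox partner of TXNIP, had 7 of 15 genes called higher and 5 lower (median 0.10), 7 higher and 3 lower under upper quartile factors, and 7 higher and 7 lower both under library size alone and with the offsets. Mitochondrial PRDX3 fell by 1.92 on the log2 scale, from 123 ± 14.6 to 32.7 ± 2.93 CPM, without overlap between the groups. PRDX5 rose by 1.34 (279 ± 36.1 to 704 ± 29.6 CPM), PRDX2 by 0.82 and mitochondrial thioredoxin TXN2 by 0.71. All 15 alternative fits called these 3 rises, but their size depended on the fit. The smallest values were 0.67 for PRDX5, 0.41 for PRDX2 and 0.26 for TXN2, whereas PRDX3 ran only from -2.11 to -1.79.

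Of 9 genes for ligases and cargo of the arrestins, 3 were called higher and 5 lower, with a median of -0.61. All 5 NEDD4-family ligases on the list fell, by 1.03 for NEDD4, 0.83 for NEDD4L, 0.91 for ITCH, 0.97 for WWP1 and 0.61 for WWP2. Their adaptors TXNIP, ARRDC3 and ARRDC4 moved the other way. Among the cargo, the glucose transporter SLC2A3 rose by 2.62 (12.0 ± 0.357 to 73.9 ± 1.48 CPM, reads it can share with its near copy SLC2A14) and SLC2A1, known to be internalised with TXNIP, by 0.70. ITGB4, a cargo of ARRDC3, rose by 1.98 (27.5 ± 4.93 to 108 ± 10.2 CPM).

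Transcription factors known to act on the 7 genes did not share a direction at the mRNA level. Of 13 on the list, 12 were tested, 6 were called higher and 3 lower (median 0.24), or 5 and 4 with library size alone. HIF1A fell by 2.35 on the log2 scale (65.7 ± 14.1 to 12.9 ± 1.55 CPM) and EPAS1, which encodes HIF2α, by 0.56. FOXO4, FOXO1 and FOXO3 rose by 1.85, 1.07 and 0.38, DDIT3 by 1.07 and MLXIP by 0.44, the gene of MondoA, which drives TXNIP and ARRDC4. MLX, the partner of MondoA, fell by 0.30. The calls of FOXO3 and MLX were each kept in 12 of 15 alternatives. VHL controls HIFα at the protein level, which was not measured in these libraries. By immunoblot, the study reported that HIF1α and HIF2α protein accumulated in Caki-1 cells after VHL loss.

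Other genes known to be induced by the same factors were counted beside them. Of 10 HIF-induced genes 9 rose and 1 fell, with a median log2 fold change of 2.22, which was the same with CA9 at its lower bound. CA9, a carbonic anhydrase, went from 0, 0 and 2 reads to 288, 247 and 233, at least 107-fold higher over the floor of 3 reads per library. NDRG1 rose by 6.03, the peptide hormone gene ADM by 3.55 and ANGPTL4, a lipase inhibitor, by 3.40. The exception was EGLN3, a HIF hydroxylase, which fell by 1.26 (69, 41 and 67 to 10, 20 and 19 reads). DDIT4, at 2.07, and TXNIP, at 2.26, lay near the median of this list. With the offsets for GC content and length DDIT4 was at 1.61 and TXNIP at 2.43, while the median of the list was again 2.22. Whether HIF contributed to either rise was not tested.

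Of 10 FOXO-induced genes 8 rose, 1 fell and 1 was not called (median 1.11). IRS2, an adaptor of the insulin receptor, rose by 1.82 (87.2 ± 2.75 to 308 ± 18.7 CPM), PIK3IP1 by 1.73, BCL6 by 1.64 and the cyclin gene CCNG2 by 1.26. BNIP3, which rose by 1.23, stands in both the HIF and the FOXO list. Of 10 ATF4-induced genes, 4 were called higher and 4 lower (median -0.21), or 2 and 4 with the offsets. The serine synthesis gene PSAT1 fell from 104 ± 7.41 to 27.8 ± 1.06 CPM and CHAC1, which degrades glutathione, from 8.79 ± 1.17 to 3.03 ± 0.830 CPM. ASNS, the asparagine synthetase gene, had 33, 13 and 42 reads against 6, 8 and 5, a call lost without VC replicate 1 or 3. NUPR1 went from 1, 4 and 9 to 24, 33 and 7 reads, or 0.0293, 0.135 and 0.237 to 0.898, 1.53 and 0.328 CPM without overlap, and was called higher (edgeR adjusted p = 0.00117). DDIT3 and CEBPB are in both this list and that of the factors.

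**Figure D5:**
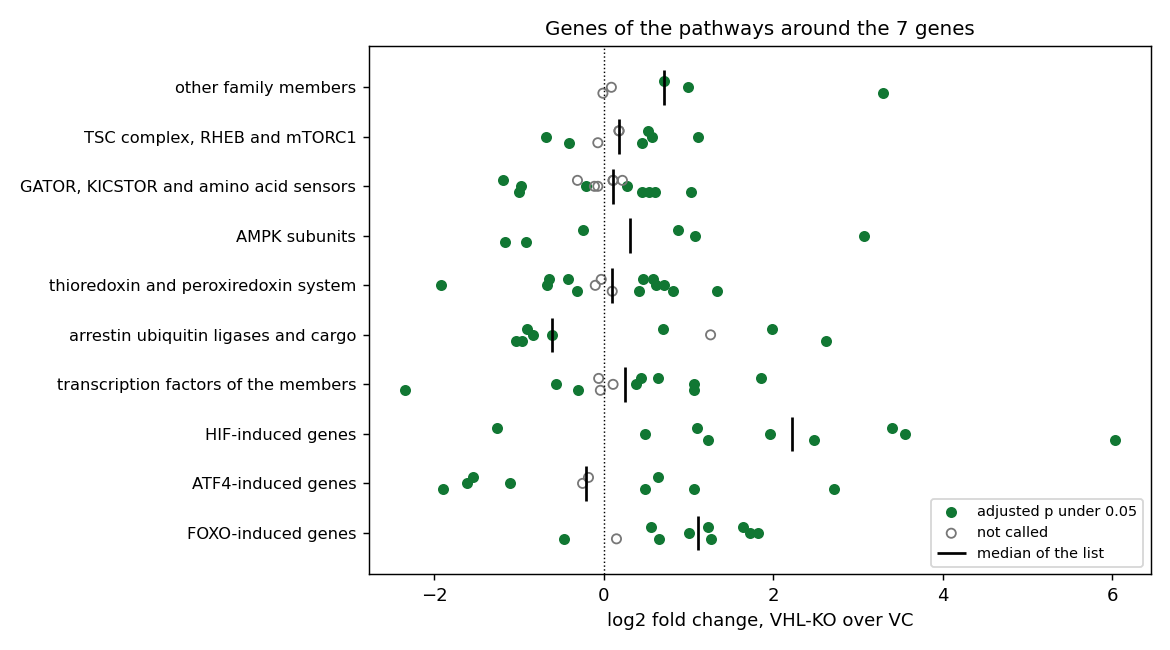
Log2 fold change (x axis, VHL-KO over VC) of each tested gene of 10 lists around the 7 genes, filled where called at an adjusted p of 0.05 by edgeR, with the median of each list as a bar. CA9 is not drawn because its VC samples are at or under 3 reads, but is counted in its list's median. HIF-induced and FOXO-induced genes lie mostly to the right (medians 2.22 and 1.11), and the ligases and cargo mostly to the left (median -0.61), apart from 3 cargo genes called higher and SLC2A4, which was not called.

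The genes whose log2 CPM followed each of the 7 most closely over the 6 samples were found by the root mean square difference of the centred profiles, among 10888 genes whose mean reached 100 normalized counts. With 6 samples in 2 groups, a close match to a called gene largely reflects a similar step between the groups, and no test was made. For DDIT4 these were CTB-25B13.12, at a difference of 0.0337, and the ATP-gated channel gene P2RX4 at 0.0363, with log2 fold changes of 2.05 and 2.12. For TXNIP they were HILPDA (0.0734), a lipid droplet protein gene, and the fucosyltransferase gene FUT11 (0.0775), with log2 fold changes of 2.38 and 2.20. For ARRDC3 they were TFPI (0.0615), an inhibitor of coagulation, and the potassium channel gene KCNJ16 (0.0692), which rose by 1.45 and 1.38. The neighbours of ARRDC4 were farther away, with RPL9P9 at 0.116 and LINC01003 at 0.153, and RPL9P9 is a pseudogene that can share reads with its parent gene. SESN3, with the fewest reads, had the most distant ones, RP11-159D12.8 at 0.156 and CEP126 at 0.190. At 10 to 38 reads a sample it lies below the 100 normalized counts required of a neighbour, so genes as low as SESN3 were not compared. SESN1 was followed by JAZF1 (0.0469) and TPD52 (0.0484), and SESN2 by ATP13A1 (0.0384) and ELL (0.0387), none of which was called. What these genes shared was mainly the spread among the VC samples. In CPM, VC replicate 3 was the highest and replicate 2 the lowest of the group for SESN1, JAZF1 and TPD52. The reverse held for SESN2, ATP13A1 and ELL. With the offsets TPD52 (log2 fold change 0.61) and JAZF1 (0.34) were called higher and ATP13A1 (-0.20) lower.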

How the data were processed

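Per the study's methods and the submitters' processing notes, RNA was extracted with Trizol, sequenced on an Illumina NovaSeq, trimmed with TrimGalore and Cutadapt (reads of at least 20 nt), aligned with STAR to GRCh38.p13, reduced to singly mapped reads with SAMtools and counted with HTSeq. The authors deposited the raw count of reads per gene and sample, without normalization. Annotation release, strand setting and tool versions are not given in the sources used here. Each library held 22628246 to 34881739 counts.

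A fit across 17401 genes (10 or more reads in any sample) compared the 2 groups with the quasi-likelihood test of edgeR 4.0.16 in R 4.3.3, two-sided, with TMM factors and Benjamini-Hochberg adjustment, and the 7 genes were read from it. Genes were called at an adjusted p under 0.05. Ratios used reads plus 0.5 and an exact permutation test. TPM used exon lengths of GENCODE v44, also the source of positions and GC content. Promoters came from RefSeq (GRCh38.p14), with at least 1 window for all 7, of which the one nearest the outer end of the gene was used. The test was tested on simulated data, where 95% of genes changed by 1 on the log2 scale and 100% of those changed by 2 were recovered. Only 100 genes of each size were changed among 16517, and 8 unchanged genes were called. The simulation had far fewer changed genes than the data and no trend with GC content, so it cannot show how the test behaves under those conditions. The changed genes were not drawn from those with the fewest reads, and every gene was given the same spread beyond counting error. Recovery of low or more variable genes was therefore not shown.

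The 7 genes, the lists and the tests were chosen with earlier results of these data known. The text names the 7 genes, VHL, 6 relatives, the 4 largest called changes of each list, and the 2 nearest profiles of each of the 7 genes. Other genes named (EGLN3, BNIP3, ARRDC3-AS1, SLC2A1, COL1A1, CEBPB, VIM, PAX2, CD3E, COL3A1, PRKAG2, SLC2A4 and the further ligases and transcription factors) were chosen after their values were seen. Some genes of the lists, and 1 list, are not reported here. Alternatives were upper quartile and relative log expression factors, scaling by library size alone, 2 other filters, DESeq2 1.42.0, each replicate left out, the replicate number as a block, and offsets for GC content and length. The offsets (natural splines with 5 degrees of freedom) would take out biological change that tracks GC content as well. Same-numbered samples of the 2 groups were not paired by the data (correlations of deviations 0.0627, -0.000449 and 0.0283).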

Additional observations from a re-analysis of the deposited data

How the results depend on the processing

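Over 15 alternative fits DDIT4, TXNIP, ARRDC3 and ARRDC4 kept their direction and their call. SESN3 lost its call with library size alone (0.72) and DESeq2 (0.96), and its log2 fold change ran from 0.63 to 1.33 as each replicate was left out. SESN1 turned to -0.09 with library size alone and was called with the offsets for GC content and length (0.54, and 0.55 with the replicate block added). SESN2 turned to -0.14 with library size alone, to -0.22 with the offsets and to -0.22 with the block and offsets, and ran from -0.03 to 0.22 as replicates were left out. The cause was not tested. The replicate numbers mark no shared culture in the labels, so a fit with the replicate block is only a check: it called 10284 genes against 10394, and gave 1.00 for SESN3, with no call of the 7 genes changed. As each replicate was left out, the ratio of SESN1 to SESN2 ran from -0.20 to 0.33. With the longest transcript as length, levels moved to 113 and 364 TPM for DDIT4 (VC and VHL-KO), 37.8 and 30.0 for SESN2, 33.1 for TXNIP in VC and 2.16 for ARRDC4 in VHL-KO cells.

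For 78 other named genes, 1087 of 1161 values kept direction and call, 42 lost and 7 gained a call, and 25 changed sign. ARRB1 was at 0.02 with relative log expression factors, 0.10 with upper quartile factors, 0.02 with 10 or more reads required in each sample, 0.02 with DESeq2, and between -0.07 and 0.08 without a replicate. With library size alone, ARRB2 was at -0.10, JAZF1 at -0.18, TPD52 at -0.08, ATP13A1 at -0.10 and ELL at -0.08. With the offsets, alone or with the block, ARRB2 was at -0.31, ATP13A1 at -0.20 and ELL at -0.13. JAZF1 was at -0.02 with at least 1 read in any sample, and without a replicate ran from -0.08 to 0.22, and TPD52 from -0.02 to 0.32. With upper quartile factors VIM was at 0.04, and without a replicate between -0.09 and 0.01, and with the offsets, alone or with the block, PRKAG2 was at 0.11, JAZF1 at 0.34 (0.35 with the block) and TPD52 at 0.61. SESN3 rests on 10 to 38 reads a sample.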
